A study of Homo sapiens with 8 samples.

Results

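The positions described here are the single bases of human messenger RNA that were listed as N1-methyladenosine (m1A) positions and that lay in 3' untranslated regions (3' UTRs), the stretch of an mRNA after its stop codon. A position was kept where at least 1 transcript placed it in a 3' UTR and none placed it in a 5' UTR or coding sequence, where its smallest position along a transcript exceeded 100 nt, and where it was listed on 1 strand only. Of 9962 listed positions, 1931 met this rule, in 1368 gene labels. The rule used the annotation only and no read count.

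The series compared neuroblastoma cells after a control transfection and after transfection with small interfering RNA against TRMT6. Poly(A) RNA was fragmented and enriched with an antibody against m1A, with 2 libraries per condition, called control 1, control 2, siTRMT6 1 and siTRMT6 2 below. Input libraries of the same design are not used here. The sample titles call the line SK-N-BE, whereas its source and cell line labels read SK-N-AS. Both are established neuroblastoma lines. The labels give no dose, no time after transfection and no siRNA sequence. They also do not say whether the 2 libraries of a condition came from separate cultures, so the p-values here reflect the spread among these libraries alone, and that spread could be technical.

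In m1A a methyl group sits on the face of adenine that normally pairs with thymine or uracil, so the base blocks pairing and can stop or mislead reverse transcriptase. The enzyme formed by TRMT61A, which holds the catalytic site, and TRMT6, its partner, places m1A in the T-loop of transfer RNA and in stems of other RNAs that resemble it. A 3' UTR carries binding sites for microRNAs and RNA-binding proteins, and these set how long an mRNA lasts, where it goes and how well it is translated.

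The values are reads counted at each base, as the authors deposited them. The 4 libraries held between 8655 and 46007 reads at all listed positions, which is not their sequencing depth. TRMT6 had 0 listed positions, so the silencing itself could not be checked in these reads. Of 8 marker genes of noradrenergic neuroblastoma, 6 had a listed position anywhere in the transcript (PHOX2A, HAND2, GATA3, TH, DBH and MYCN), with 123 to 251 reads per library. Of 8 mesenchymal markers, 2 did (VIM and TWIST1), with 11 to 25 reads per library, while PRRX1, FOSL1, FN1, SNAI2, YAP1 and CD44 were not listed. Of 9 fibroblast or Schwann cell markers only PDGFRB did, with 13 reads in control 2.

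The base at a listed position could be read only where it fell inside a promoter window of another or an overlapping gene in the RefSeq table for GRCh38.p14, since no genome sequence was at hand. This was the case for 7 of the 1931 positions. The windows of 6 of them are printed because they show what base was listed; they run 5' to 3' along the gene's own strand, over 29 bases, with the listed base in capitals.
C11orf83, chr11:62672268-62672296, plus strand: cccccaaaccctggActgactgctttaag
NRGN, chr11:124746846-124746874, plus strand: cccagcctagccccAagactttggatccg
SPATS2L, chr2:200478027-200478055, plus strand: cctgagctaggaggAaaaagagcagtttt
CSNK2B, chr6:31669935-31669963, plus strand: cccacctgtcctgcAgtctttgacttttc
REPIN1, chr7:150373070-150373098, plus strand: agacgcggggagtgAgctgggtgggccct
CTXN1, chr19:7925237-7925265, minus strand: cctgcgccggggtcTcagagggccggccc

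In the 5 genes on the plus strand the listed base was A, and in CTXN1, on the minus strand, it was T. The 7th position, also in C11orf83, was an A. C11orf83 had 11 reads in control 2 at the printed base and 11 in siTRMT6 1 at the other one. CSNK2B, the regulatory subunit of casein kinase 2, had 15 reads in control 2, and the zinc finger gene REPIN1 had 16 in siTRMT6 2. NRGN, encoding the postsynaptic protein neurogranin, had 8 in siTRMT6 2, SPATS2L had 7 in control 2, and CTXN1 had 11 in siTRMT6 2. The same reading over all listed positions, most of them near gene starts, gave A at 127 of 127 on the plus strand and T at 341 of 341 on the minus strand. A listed position of a minus-strand gene was therefore an A of the genome's plus strand, and a T, not an A, of the transcript. In CTXN1 the listed base is thus not an adenine of the mRNA. The base was not read for the remaining 3' UTR positions.

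Gene strand also set apart where in the 3' UTR the positions lay. Genes of the plus strand held 1328 of the 3' UTR positions (68.8%) and genes of the minus strand 603. Among the other listed positions the plus strand held 75.5%, and it held 50.7% of the genes with a RefSeq promoter window. A distance to the gene's 3' end, where the poly(A) tail is added to the longest annotated form, was available for 1915 positions in the RefSeq annotation. The median distance was 1132 nt (quartiles 495 and 2586 nt).

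On the plus strand 175 of 1316 positions (13.3%) lay within the last 200 nt of the gene. On the minus strand 0 of 599 did, which allows a share of up to 0.501% only if positions are taken as independent. The gap was present in each library: 12 of 85 against 0 of 38 in control 1, 79 of 606 against 0 of 259 in control 2, 55 of 458 against 0 of 217 in siTRMT6 1, and 32 of 174 against 0 of 92 in siTRMT6 2. In the 100 nt before those the counts were 108 and 4, and in the 100 nt before that 76 and 30. The medians were 997 nt on the plus strand and 1402 nt on the minus strand. Positions of 1 library are not replicates, so these shares carry no p-value.

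The nearest plus-strand positions lay 6 nt from the end in SRRM5 (8 reads, control 2), 13 nt in NPM1, which encodes the nucleolar protein nucleophosmin (7 reads, control 1), and 20 nt in ATP5D, a subunit of ATP synthase. The nearest on the minus strand lay 245 nt from the end in SGTA, a co-chaperone (9 reads, siTRMT6 2), and 255 nt in UCP2, a mitochondrial carrier (8 reads, control 2). These genes were picked for their distance after the values were seen. At the other end of genes the order was opposite. Over all listed positions of 1 strand, 271 of 2498 on the minus strand (10.8%) and 106 of 7166 on the plus strand (1.48%) had a position within the first 50 nt of a transcript. The sources used here give neither the fragment length nor the rule that turned reads into positions, and the part of either in this pattern was not tested.

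**Figure D1:**
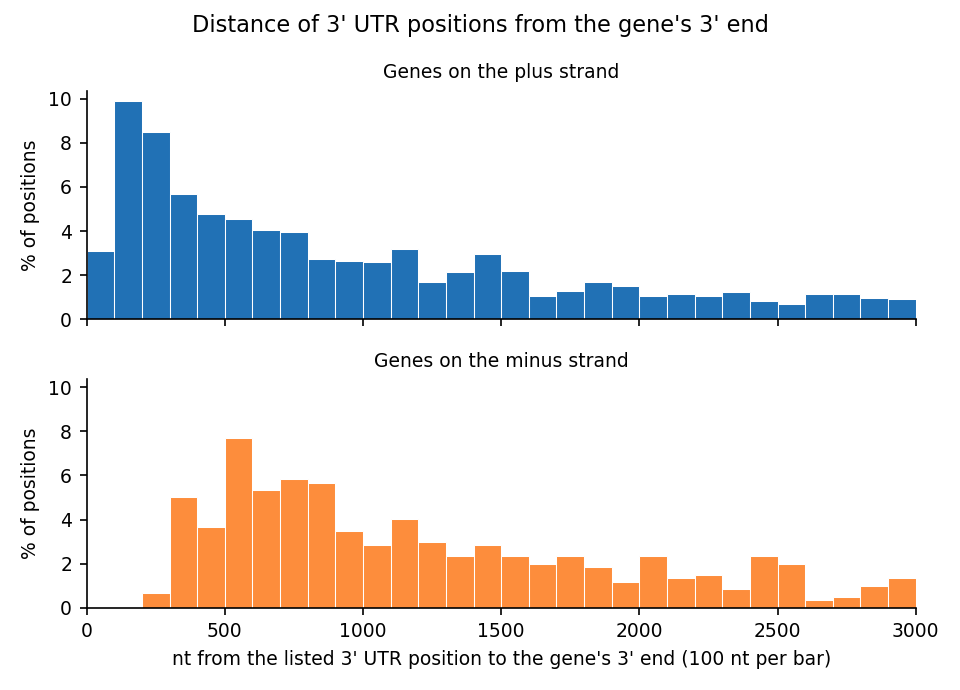
Distance from each listed 3' UTR position to the 3' end of its gene, in bars of 100 nt up to 3000 nt, as a percentage of the 1316 positions of plus-strand genes (top) and the 599 of minus-strand genes (bottom). The bars of the first 200 nt are empty on the minus strand and hold the tallest bar on the plus strand.

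Per library, the number of 3' UTR positions followed the number of all listed positions, of which they are a part. Control 1 had 123, control 2 had 873, siTRMT6 1 had 683 and siTRMT6 2 had 267. They made up 15.0% of the listed positions in control 1 (95% Wilson interval 12.7 to 17.6), 20.4% in control 2 (19.3 to 21.7), 18.9% in siTRMT6 1 (17.7 to 20.2) and 18.9% in siTRMT6 2 (16.9 to 21.0). These intervals cover counting error only. The siTRMT6 libraries lay between the 2 control libraries. The mean share was 18.9% after silencing and 17.7% in the controls, a difference of 1.17 percentage points that was smaller than the gap between the controls (two-sided exact permutation p = 1; with 2 against 2 libraries the smallest possible p is 0.333). Without control 1 the difference was -1.54 points, so its direction rests on that library.

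**Figure D2:**
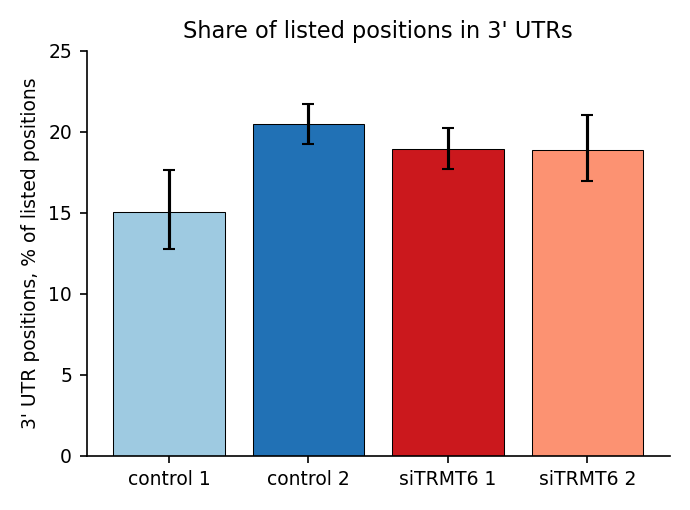
Share of each library's listed positions that lay in 3' UTRs, in percent, for the 2 control and 2 siTRMT6 libraries. Error bars are 95% Wilson intervals, and both siTRMT6 bars (18.9%) stand between control 1 (15.0%) and control 2 (20.4%).

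The reads per position were few. The median was 9 reads in control 1, 11 in control 2, 10 in siTRMT6 1 and 9 in siTRMT6 2, against 8, 8, 9 and 8 at the other listed positions. Over all libraries 1023 of the 1931 positions had 10 reads or fewer and 177 had 20 or more. Of the 1931 positions, 1917 had reads in a single library, 13 in 2 libraries and 1 in 3.

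The highest counts at 3' UTR positions belonged to IGF2 and CHGA. IGF2, a fetal growth factor from an imprinted locus on the minus strand, had its control 2 reads (73) at 2132498 of chromosome 11, its siTRMT6 2 reads (46) at 2132469 and 68 siTRMT6 1 reads at 2132516. The 3 bases span 48 nt, and IGF2 had a further 66 reads in siTRMT6 1 some 2109 nt downstream, at 2130407. CHGA encodes chromogranin A of secretory granules. Its 62 reads in control 2 lay at 92935113 of chromosome 14, and its 35 reads in siTRMT6 2 at 92935086. These 2 bases of the CHGA 3' UTR lay 27 nt apart in a control and a siTRMT6 library, while siTRMT6 1 had 61 reads at a coding position of CHGA and 0 in its 3' UTR.

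In control 1 the highest counts were 23 reads each in UNC5B, a netrin receptor, CALM3, encoding calmodulin, and HNRNPAB, an RNA-binding protein, followed by 21 in FSCN1 and in IGFBP5, which binds insulin-like growth factors. Control 2 followed IGF2 and CHGA with DOK4, an adaptor of receptor tyrosine kinases (40 reads), the kinesin gene KIF26A (37) and SOX4, a transcription factor of neural and sympathetic precursors (36). In siTRMT6 1 the genes after IGF2 were CPLX2, complexin 2 of the synaptic vesicle fusion machinery (38 reads), PRPH, the neuronal filament protein peripherin (34), and the endoplasmic reticulum chaperone gene CALR (33). In siTRMT6 2, CPLX2 again, PTMS, encoding parathymosin, and TUBB, a beta-tubulin, had 22 reads each. Counts at single bases depend on how reads were assigned to a base and are not levels of these mRNAs.

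Most genes had a single 3' UTR position: 945 of the 1368 gene labels had 1, 321 had 2 and 102 had 3 or more. Of these labels, 319 had positions from both conditions, 581 from control libraries only and 468 from siTRMT6 libraries only. The same split was not taken for genes of other positions, so it is not shown to be particular to 3' UTRs. Among the 1419 gene names in the 1368 labels, 685 also had a listed coding position and 204 a 5' UTR position, while 648 had neither. Of the 1931 positions, 20 carried 2 gene names and 4 carried more. All 4 lay in clustered protocadherin genes, which share their last exons: 6 reads each in siTRMT6 1 and control 2 fell on a 3' UTR shared by 15 protocadherin alpha genes, and 11 reads at each of 2 bases in siTRMT6 2 on one shared by 22 protocadherin gamma genes.

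In all, 5 gene labels had 3' UTR positions in each of the 4 libraries: FSCN1, encoding the actin-bundling protein fascin, GATAD2A, a subunit of the NuRD chromatin complex, LARP1, which binds the 5' end of ribosomal protein mRNAs, NIT1, an amidase, and TM9SF4, a membrane protein. LARP1 and GATAD2A, with 6 positions each, also had the most. LARP1 had 14 reads in siTRMT6 2 at 154814148 of chromosome 5, 19 in control 1 at 154814656, 22 in siTRMT6 1 at 154815827, 14 in siTRMT6 2 at 154816154, 20 in control 1 at 154816246 and 25 in control 2 at 154816283. The 2 libraries with more than 1 position in the LARP1 3' UTR had 19 and 20 reads (control 1) and 14 and 14 (siTRMT6 2), at bases 1590 and 2006 nt apart.

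GATAD2A showed the same order of libraries. It had 12 and 11 reads in control 1 at 2 bases 729 nt apart, 16 and 15 in siTRMT6 1 at bases 686 nt apart, 16 in control 2 and 9 in siTRMT6 2. CALM3 had 30 and 30 reads in siTRMT6 1, 21 and 21 in siTRMT6 2 and 23 in control 1. FSCN1 had 21 reads in control 1, 26 in control 2, 24 in siTRMT6 1 and 15 in siTRMT6 2. DPYSL5, which encodes a collapsin response mediator of axon growth, had 20 and 18 reads in control 2 and 14 reads at each of 3 bases in siTRMT6 1. ZC3H7B, a zinc finger protein, had 21 reads in control 2, 19 and 19 in siTRMT6 1 and 10 and 10 in siTRMT6 2. ARF1, a GTPase of vesicle budding, had 19 and 20 in control 1, 24 in siTRMT6 1 and 13 in siTRMT6 2. IGFBP5 had 21 in control 1, 22 in siTRMT6 1 and 14 and 13 in siTRMT6 2. Where a library had more than 1 base in 1 of these 3' UTRs, its counts lay closer together than those of the highest and lowest library. Some libraries were alike, as control 2 and siTRMT6 1 in GATAD2A with 16 each, and FSCN1 had 1 base per library.

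**Figure D3:**
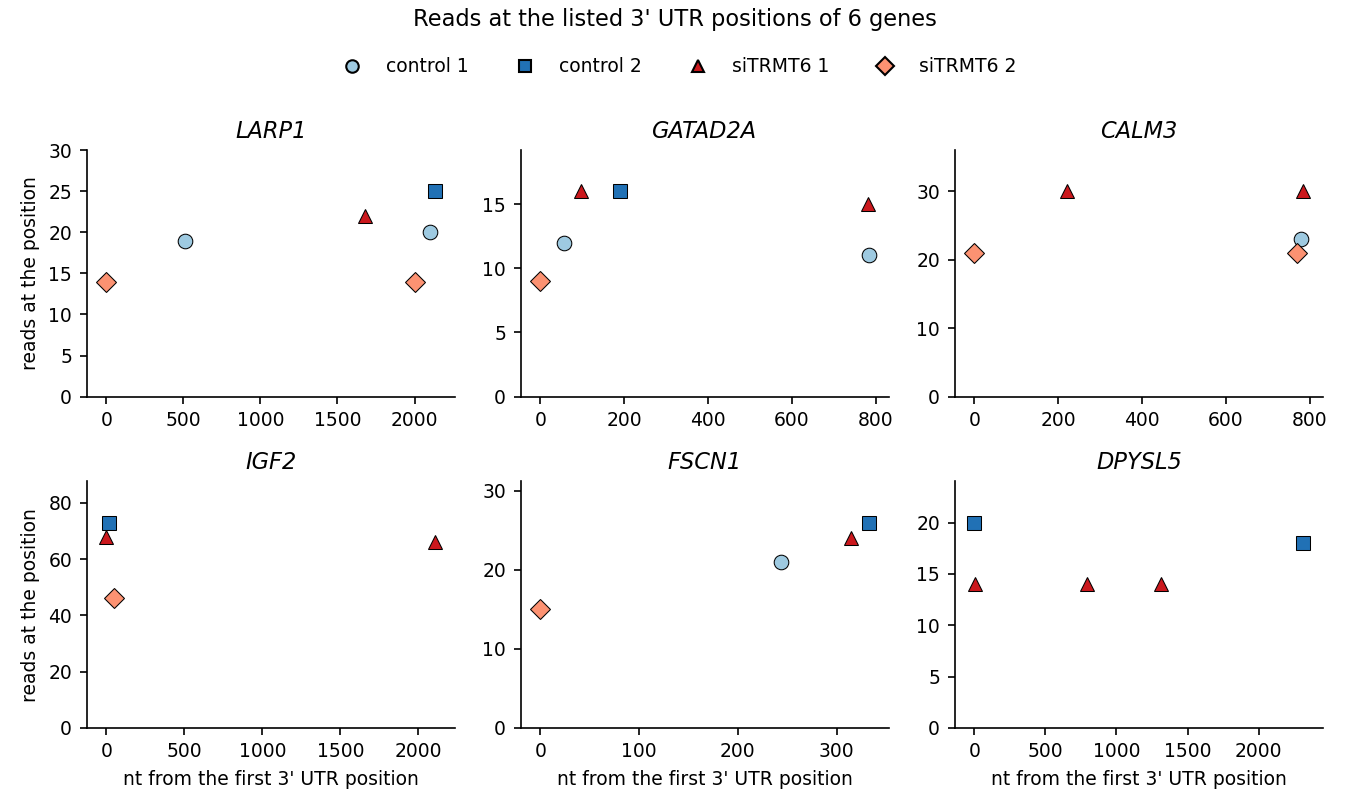
Reads at each listed 3' UTR position of 6 genes against the distance in nt from the gene's first such position, read along the transcript. Each point is 1 position in 1 of the 4 libraries, and points of the same library lie at nearly the same height, as the pairs of 30 and 21 reads in CALM3 and the 3 values of 14 in DPYSL5 show.

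Pairs were then counted over all 3' UTRs with more than 1 position on the same transcript in a library. There were 112 pairs of positions of the same transcript and library, in 88 genes, at a median distance of 912.5 nt along the transcript. The reads were equal in 70 pairs (62.5%) and differed by at most 1 in 102 (91.1%). NCLN, which encodes a membrane protein of the endoplasmic reticulum, had 15 reads at each of 3 bases in siTRMT6 1. PVRL1, a nectin adhesion receptor, had 24, 24 and 23 in control 2, and SLC7A5, an amino acid transporter, had 15 and 15 in siTRMT6 2. GNAO1, the neuronal G protein subunit, had 29 and 29 in control 2 on 1 transcript, but 24 and 7 in siTRMT6 1 at 3' UTR bases of different transcripts. The widest gap among the 112 pairs was 3 reads, in PTBP1 and FADS1. By library, reads were equal in 0 of 4 pairs in control 1, 26 of 52 in control 2, 34 of 45 in siTRMT6 1 and 10 of 11 in siTRMT6 2.

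The squared difference of 2 counts divided by their sum averages about 1 where both vary by independent counting alone. Over the 112 pairs it averaged 0.0232. For pairs of 3' UTR positions of different genes in the same library it averaged 1.91 in control 1, 2.38 in control 2, 2.14 in siTRMT6 1 and 1.48 in siTRMT6 2, with 6.41% to 10.6% of pairs equal. Counts at 2 bases of 1 3' UTR were thus closer than independently counted reads would be. The sources used here do not give the authors' counting rule, and why the counts are so close was not tested. Pairs of coding positions of the same transcript and library did not show it: 20.8% of 2255 were equal, and the average was 1.08. Models of read counts, used below, assume at least counting noise.

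**Figure D4:**
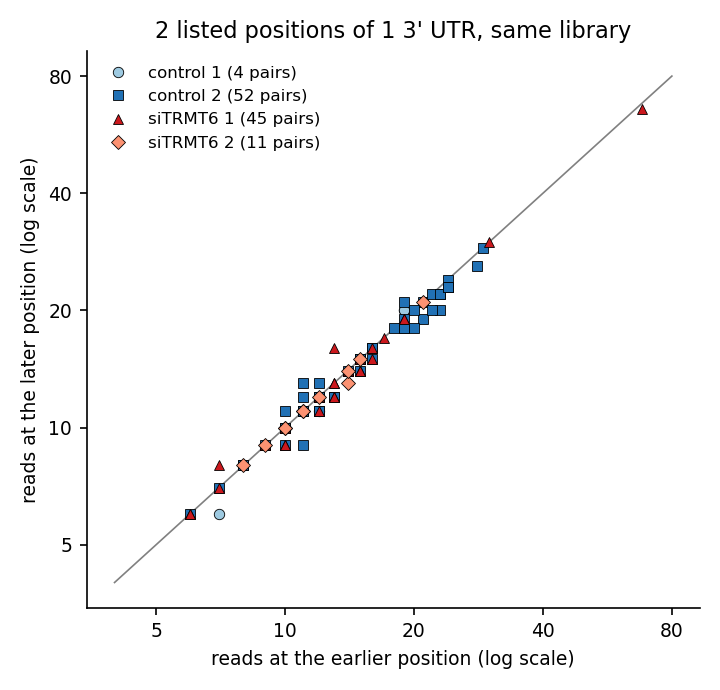
Reads at the later against the earlier of 2 listed positions of 1 3' UTR in the same library, for 112 pairs, on log axes with the line of equality; symbols mark the 4 libraries. The points lie on or within 3 reads of the line, from 6 reads up to IGF2 with 68 and 66 reads in siTRMT6 1.

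Pairs from different regions of a transcript were less alike. In 89 pairs of a 5' UTR position and a 3' UTR position of the same transcript and library, the 3' UTR position had more reads in 72 (80.9%) and fewer in 10, with a median ratio of 1.40. This order was seen in each library, in 1 of 1 pairs in control 1, 28 of 31 in control 2, 34 of 45 in siTRMT6 1 and 9 of 12 in siTRMT6 2. Against coding positions, the 3' UTR position had more reads in 435 of 827 pairs (52.6%) and fewer in 246 (29.7%), with a median ratio of 1.08 and an averaged squared difference over the sum of 0.995. Pairs of 2 coding positions were much the same, with the later one higher in 1111 of 2255 (49.3%) and lower in 676, so an excess at the later base was not particular to the 3' UTR. Against coding positions the order was the same in each library, but its size differed. The 3' UTR count was higher in 57.1% of 14 pairs and lower in 35.7% in control 1, and 62.0% against 24.3% in control 2. It was higher in 44.4% and lower in 35.9% in siTRMT6 1, and 36.8% against 32.2% in siTRMT6 2. DPYSL5 had 6 and 7 reads at coding positions in siTRMT6 1 and 14 in its 3' UTR, and FADS2 had 8 and 6 at coding positions in control 2 and 21 in its 3' UTR.

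Control and siTRMT6 positions often lay beside each other. Within 200 nt there were 411 pairs of 3' UTR positions. None came from 1 library, which allows a share of up to 0.730% only if the pairs are taken as independent. Some pairs have a position in common, so they are not. The closest positions of 1 library were 333 nt apart. Of the 411 pairs, 104 joined replicates of 1 condition and 307 joined a control with a siTRMT6 position, at median distances of 35.5 and 27 nt. More pairings of libraries cross conditions than join replicates, and the libraries differ in listed positions, so these counts cannot be compared. Of control 2's 873 positions, 193 (22.1%) had a siTRMT6 1 position within 200 nt, which is 28.3% of the 683 in siTRMT6 1, although 0 were at the same base. Of siTRMT6 2's 267 positions, 31.8% had a siTRMT6 1 position within 200 nt and 23.2% a control 2 position. Of control 1's 123, 26.8% had a control 2 position within 200 nt and 28.5% a siTRMT6 1 position. The siTRMT6 libraries shared 9 bases, the controls 5, and each pair across conditions 0 or 1.

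Close neighbours give a ratio between libraries at nearly the same place. Over pairs of 2 libraries within 30 nt, control 2 had 1.31 times the reads of control 1 (median of 16 pairs), and siTRMT6 2 had 0.64 times those of siTRMT6 1 (32 pairs). Across conditions the medians were 1.17 for siTRMT6 1 over control 1 (19 pairs), 0.75 for siTRMT6 2 over control 1 (11 pairs), 0.89 for siTRMT6 1 over control 2 (103 pairs) and 0.58 for siTRMT6 2 over control 2 (32 pairs). The order of the libraries, control 2, siTRMT6 1, control 1 and siTRMT6 2, mixed the conditions. The ratio between the controls was farther from 1 than that of siTRMT6 1 to either control. The ratio of siTRMT6 2 to control 2 was the farthest from 1. Reads were not scaled by library here. A base enters a pair only if the table lists it, so places with too few reads in either library are missing from these ratios.

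NONO, an RNA-binding protein of paraspeckles, is an example, with 26 control 2 reads at 71300731 of chromosome X beside 24 siTRMT6 1 reads 19 nt away. FKBP10, a collagen chaperone, had 19 control 1 reads and, 28 nt away, 26 siTRMT6 1 reads. GAB2, an adaptor of growth factor receptors, had 20 in control 1 and 24 in siTRMT6 1, 14 nt apart, and C19orf68 had 19 in control 2 and 25 in siTRMT6 1, 10 nt apart. CALM3 had 23 reads in control 1 and 30 in siTRMT6 1, 5 nt apart. The authors' deposited table lists each of these bases as changed, lower at the control base and higher at the siTRMT6 base.

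**Figure D5:**
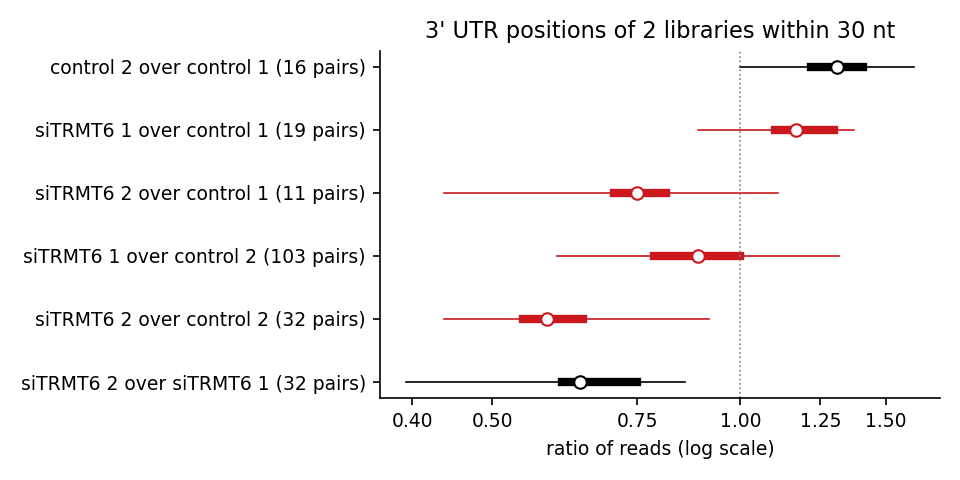
Ratio of reads between 2 libraries at 3' UTR positions within 30 nt of each other, on a log axis, for the 6 pairs of libraries. Circles are medians, thick bars quartiles and thin lines the full range, black within and red between conditions. The reads are not scaled by library. The medians are 0.64 and 1.31 within conditions and run from 0.58 to 1.17 between them.

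In the authors' deposited table, all 1931 3' UTR positions had an adjusted p below 0.05. Of these 940 were higher after silencing (48.7%) and 991 lower. Of all listed positions, 49.6% were called higher and 50.4% lower, so the 3' UTR split was near the background. The direction followed the library: 990 positions had control reads only, 940 siTRMT6 reads only, and 1, in ATP5D, had both. The other 8031 listed positions were alike, with 4021, 3997 and 13, and 8030 of them also had an adjusted p below 0.05. The table thus held almost only positions called as changed. The sources used here do not say whether others were left out. If they were, bases with similar reads in both conditions would be missing, so the scarcity of shared bases is not a result about the libraries. In ATP5D the base at 1244805 of chromosome 19 had 15 reads in control 1, 16 in control 2, 0 in siTRMT6 1 and 10 in siTRMT6 2.

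The 4 libraries were also tested as replicates with edgeR's quasi-likelihood test, with p-values adjusted by the Benjamini-Hochberg method over all tested positions. Only 5 of the 1931 3' UTR positions had enough reads in enough libraries to enter the test, and 4 of them were called, 3 higher and 1 lower after silencing. Of the 34 positions tested in all, 64.7% (22) were called. A base with reads in 2 libraries of 1 condition and in neither of the other passes the filter only through the condition where it is high, so it had to differ, and the count is not support for a change.

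ELAVL3, a neuronal RNA-binding protein that itself binds 3' UTRs, had 26 reads in siTRMT6 1, 17 in siTRMT6 2 and 0 in both controls at 11453823 of chromosome 19, on the minus strand. This was at least 14.4-fold higher against a floor of 3 counts over the controls, scaled by listed reads (fitted log2 difference 7.58, SE 0.18, edgeR adjusted p = 0.00592). The SE here and below is the log2 difference divided by the square root of the test's F value. With 0 reads in both controls the size of the fitted difference is not determined, so an SE of 0.18 overstates its precision. UNC13A, which readies synaptic vesicles for release, had 20 and 12 siTRMT6 reads and 0 control reads at 17603664 of the same chromosome and strand, at least 10.7-fold higher (edgeR adjusted p = 0.00592). MGRN1, a ubiquitin ligase, had 16 and 8 siTRMT6 reads at 4690768 of chromosome 16 and 0 in the controls, at least 8.01-fold higher (edgeR adjusted p = 0.00924). FADS2, a fatty acid desaturase, had 20 and 21 control reads at 61867263 of chromosome 11 and 0 after silencing, at least 13.6-fold lower (edgeR adjusted p = 0.00628). These folds are lower bounds only if a listed 0 means that no read was there, which the sources used here do not say. ATP5D did not pass (log2 difference -1.03, SE 2.0, edgeR adjusted p = 0.886). MGRN1, FADS2 and ATP5D are on the plus strand. The base itself was read at none of these 5 positions, and all minus-strand bases that could be read elsewhere were T in the transcript, so these data do not show that the ELAVL3, UNC13A and IGF2 bases are adenines of the mRNA.

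The count of calls was 0 when any 1 library was left out, when the filter on low counts was dropped, or with the replicate number as a block. Without 1 library the spread comes from the condition that keeps 2, and the lone library is assumed to vary alike. The fitted direction was the same in each such fit that tested the position, with log2 values of 7.45 to 7.77 for ELAVL3 and -7.34 to -7.10 for FADS2. Their standard errors were 2.19 to 10.4 and 1.63 to 10.7, so a fit of 3 libraries may be too small to call them. The neighbourhood of the called bases also bears on them. FADS2 had 21 reads in control 2 at 61866429 too. Its coding positions had 15, 9 and 7 reads in siTRMT6 1, 8 in siTRMT6 2, and 8 and 6 in control 2. ELAVL3 had 30 reads in control 2 at a coding position, 11454870, and 12 in siTRMT6 1 at a 5' UTR position. UNC13A had a further 12 reads in siTRMT6 2 at 17602522 and 0 control reads at any listed position, and the only other listed position of MGRN1 had 6 reads in siTRMT6 1.

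Reads in both replicates of 1 condition were listed at 9 more bases. Among the controls, SBK1, a kinase gene, had 9 and 12 reads, SCLY, selenocysteine lyase, had 9 and 11, and CLEC16A, a mitophagy regulator, had 7 and 11. Among the siTRMT6 libraries, the septin gene SEPT2 had 13 and 9 reads, ELOVL5, a fatty acid elongase, 9 and 7, ZDHHC11B 9 and 6, the semaphorin gene SEMA6A 9 and 5, IFT80, a protein of cilia, 4 and 4, and ANTXR2 4 and 3. None of these entered the test. ANTXR2 also had 8 reads in control 2 at a base 5 nt away, and SBK1 and CLEC16A each had 10 reads in siTRMT6 1 at another 3' UTR base. The second siTRMT6 value equalled the first in IFT80 and was lower in the other 5.

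Because listed bases rarely coincide, reads were also summed over listed positions of the same strand within 200 nt. This gave 1560 regions that held a 3' UTR position, of which 281 (18.0%) had reads from both conditions, 687 from controls only and 592 from siTRMT6 libraries only. The same split was not taken over all joined regions, so it is not shown to be particular to 3' UTRs. Of the 1560 regions, 104 entered the edgeR test and 0 were called at an adjusted p below 0.05 (0% of the 487 tested regions of the whole table). At an unadjusted p below 0.05 there were 29 in edgeR, 26 higher and 3 lower after silencing, with adjusted p from 0.0581 to 0.0698. These 29 are 27.9% of the 104, near the 25.7% of all tested regions (20.3% higher and 5.34% lower). Each of the 29 had 0 reads in 1 condition and so passed the filter only through the condition where it was high, and the count is no support for a change. DESeq2 called 0 and had 4 of the 104 at an unadjusted p below 0.05, against 29 of all 487 tested regions (5.95%). It gave no adjusted p to 425 of the 487 tested regions, which could therefore not be called. It called 1 region of the whole table. Scaled by listed reads without TMM, edgeR had 14 of the 104 at an unadjusted p below 0.05, all 14 higher. Of all 487 tested regions, 55 (11.3%) were below it, 11.1% higher and 0.205% lower. GATA2, a transcription factor of sympathetic neurons, had 32 reads in siTRMT6 1, 17 in siTRMT6 2 and 0 in the controls over 79 nt. TLX2, a homeobox gene of the same lineage, had 28 and 11 siTRMT6 reads and 0 in the controls over 27 nt (edgeR adjusted p = 0.0642 for GATA2 and 0.0626 for TLX2).

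Among the 281 regions with reads from both conditions, the median log2 ratio of siTRMT6 to control reads, scaled by listed reads, was -0.22 (quartiles -0.51 and 0.0021). A difference of 2-fold or more was seen in 24 regions, 5 higher and 19 lower, but the balance depends on the scaling. Of the 281 regions, 75 entered the test. Among these, 5 were at least 2-fold higher and 9 at least 2-fold lower by listed reads (median log2 -0.17), against 10 higher and 6 lower with TMM (median log2 0.02). By listed reads the extremes were CTD-2540B15.13/LRP3 at -1.90, with 12, 18, 0 and 8 reads in control 1, control 2, siTRMT6 1 and siTRMT6 2, and STC2, a secreted glycoprotein hormone, at 1.36, with 9, 0, 13 and 10 reads. In both, 1 library had no listed read. GATAD2A and NIT1 had reads from all 4 libraries in 1 region. GATAD2A had 12, 16, 16 and 9 reads over 192 nt, a log2 ratio of -0.16, and NIT1 had 9, 12, 11 and 7 over 22 nt, a log2 ratio of -0.22. In both regions control 2 had the most reads or tied for it, siTRMT6 2 had the fewest, and the conditions overlapped.

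Genes whose products act on 3' UTRs were themselves listed in part. Of 38 genes of 3' UTR and poly(A) binding proteins, 9 had a 3' UTR position, 15 positions in all, of which the authors' deposited table gave 5 as higher and 10 as lower (33.3% higher, against 48.7% of all 3' UTR positions). PTBP1, a repressor of splicing, had 23, 22 and 20 reads at 3 bases, all in control 2. CELF1, which binds GU-rich elements, had its control 2 reads (17) at 47467834 of chromosome 11, its siTRMT6 1 reads (16) at 47467861 and its siTRMT6 2 reads (8) at 47467407. UPF1, the helicase of nonsense-mediated decay, had 16 and 16 reads in control 2 and 8 in siTRMT6 2. For PTBP1 only control 2 had reads, while for CELF1 and UPF1 both conditions did.

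Of 13 genes of the microRNA machinery, 4 had a 3' UTR position. DGCR8, the partner of Drosha in microRNA processing, had 16 control 2 reads and, 34 nt away, 13 siTRMT6 1 reads. AGO1, an Argonaute protein, had 8 reads in siTRMT6 1, TNRC6A, which recruits deadenylases to Argonaute, had 8 in control 2, and its paralog TNRC6B had 6 in siTRMT6 1. The list had 3 positions higher and 2 lower in the authors' deposited table (60% higher, against 48.7% of all 3' UTR positions).

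Of 25 genes of deadenylation and decay, 3 had 1 position each: DDX6, a helicase of P-bodies, with 11 reads in control 2, the antiproliferative gene BTG2 with 7 in siTRMT6 1, and DCP1A of the decapping complex with 6 in control 2. Of 18 genes of 3' end formation, NUDT21, which binds the UGUA element upstream of the poly(A) site, had 8 reads and CPSF6, its partner, had 6, both in control 2. Counts this low sit near the smallest that the table lists for 3' UTR positions, which was 5 for controls and 3 after silencing.

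Among 14 m1A enzymes and readers, 3 had a 3' UTR position. TRMT61A, the catalytic partner of the silenced TRMT6, had 10 reads in siTRMT6 1 and 9 in control 2 at bases 586 nt apart. The demethylase gene FTO held 8 control 2 reads and 7 siTRMT6 1 reads, and PRORP, the nuclease subunit of mitochondrial RNase P, had 6 in control 2. None of these positions entered the test.

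Genes of the noradrenergic neuroblastoma state had 3' UTR positions in 12 of 30 cases, with 22 positions. The authors' deposited table gave 11 as higher and 11 as lower (50% higher, against 48.7% of all 3' UTR positions). TBX2, a T-box factor, had control 2 counts of 23 and 22 at 61408532 and 61408940 of chromosome 17, and a siTRMT6 1 count of 22 at 61408952. CCND1, encoding cyclin D1, had 34 control 2 reads and, 863 nt away, 29 siTRMT6 1 reads. DBH, which makes noradrenaline, had 16 reads in control 1 and 7 in siTRMT6 2, 19 nt apart, and GATA3 had 11 in siTRMT6 1. Of 22 mesenchymal genes only JUNB, a subunit of the AP-1 factor, had a 3' UTR position, with 17 reads in control 2. These lists were drawn up with results of these data known, and the number of genes listed depends on how abundant and how long each mRNA is.

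Of 25 genes of the neuronal cytoskeleton and synapse, 11 had 15 positions, 8 higher and 7 lower in the authors' deposited table. UNC13A and PRPH are given above. STMN2, a microtubule regulator of axons, had 13 reads in control 2 and 8 in siTRMT6 1. Of 19 growth and imprinted genes known for regulation through the 3' UTR, 9 had 18 positions, 11 higher and 7 lower. This is 61.1% higher, against 48.7% of all 3' UTR positions, and 3 of the 11 are IGF2 bases. IGF2R, the receptor that clears IGF2, had 15 control 2 reads and, 8 nt away, 15 siTRMT6 1 reads, and another 15 in siTRMT6 1 at a distance of 1145 nt. CDK6, a cell cycle kinase with a long 3' UTR, had 11 and 13 reads in control 2 at bases 7599 nt apart and 7 and 8 in siTRMT6 1 at bases 5729 nt apart. In IGF2R and CDK6, as in LARP1, the value held along the 3' UTR within a library.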

How the data were processed

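One deposited table of 25539 rows lists positions, transcript regions, 4 columns of read counts, the authors' log2 fold change, p-value and adjusted p-value, per the file headers. The column names do not say whether the counts are m1A or input reads, and they were taken as m1A reads. Per the submitters' processing notes FastQC 0.11.3, STAR and hg38 were used. The sources used here name no caller, counting rule or test. Sites count from 0 in the table and from 1 here.

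Counts were tested with edgeR 4.0.16 (TMM, filterByExpr, quasi-likelihood, Benjamini-Hochberg, threshold 0.05) over all listed features, and with DESeq2 1.42.0 as an alternative. Of these steps only the edgeR fit of joined regions was tested on simulated data, at a greater depth than here and with large changes. That run does not show how the fit performs at the depth and spread of these counts. TMM had few positions shared between libraries. Lower-bound folds use a floor of 3 counts over a group, scaled by listed reads. Gene ends, promoter windows and older symbols came from RefSeq GRCh38.p14, where 1402 of 1419 gene names matched.

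Named genes were the called positions, the 5 positions with most reads per library, the 10 genes with most positions, positions listed in both conditions or in both replicates, the 10 closest pairs by reads across conditions, and up to 4 genes per list by reads. A gene that this rule would name is not reported here. GATA3 and DBH were named as markers. Examples of equal counts within a 3' UTR and of distances to gene ends were chosen after their values were seen, as were TLX2 and the extreme regions. The 3' UTR positions, gene lists and tests were chosen with earlier results of these data known.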

Additional observations from a re-analysis of the deposited data

How the results depend on the processing

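The number of 3' UTR positions called by edgeR was 4 (22 of all 34 tested positions), as with DESeq2 (20 of 34), and 3 with listed-read scaling without TMM (14 of 34). It was 0 without the filter on low counts, and 0 to 0 when each library was left out in turn, with 0 of the tested 3' UTR positions at an unadjusted p below 0.05 in each of these fits. The labels do not say that equal replicate numbers share a culture. With the replicate block the count was 0 for positions (0 unadjusted) and 0 for joined regions (0 unadjusted). The correlation of same-numbered deviations was 0.188 over 34 positions and -0.27 over 487 regions. A crossed replicate block, chosen after seeing the data, gave 0 calls for positions and 0 for regions.

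Joined regions had 0 calls under each alternative run: DESeq2, listed-read scaling, no filter, the replicate block, each library left out, and joining at 50 nt (20 unadjusted) or 500 nt (33 unadjusted). The 20 were of 77 tested regions with a 3' UTR position, against 91 of 386 in the whole table. The 33 were of 129, against 133 of 536, so both were near the background. With a control left out, all unadjusted regions were higher after silencing, and without siTRMT6 1 all were lower. Without siTRMT6 2 there were none. Their direction thus follows the library left out. The median fitted log2 over the 487 tested regions was 0.15 with TMM, 0.14 with listed-read scaling and -0.07 with DESeq2. DESeq2 gave no adjusted p to 425 of the 487 regions, so its 0 calls do not cover them.

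The difference in 3' UTR share was 0.871 percentage points by reads, 1.16 without the minimum transcript position, and -1.54 to 3.89 when each library was left out. It was negative only without control 1 (-1.54).

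With 2 libraries per condition, medians near 10 reads per position, and counts that vary less than counting noise within a 3' UTR, changes at single bases could not be told from which library listed the base.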
